A study of Bos taurus with 11 samples.

Results

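Peripheral nerves enter the mammary gland with its blood vessels, and their axons are wrapped by Schwann cells. The 7 genes described here encode a transcription factor of the Schwann cell lineage (SOX10), a neurotrophin receptor (NGFR), a calcium-binding protein used to stain Schwann cells (S100B), proteins of the myelin sheath or its anchorage (MBP, PMP22 and PRX) and a tetraspanin found in myelinating cells (TSPAN2). They are 7 of the 18444 genes with a probe set of exactly 1 gene symbol among 26773 probe sets. The probe set of a gene was chosen by its mean over all 11 arrays, and since each gene had 1 such probe set that choice changed nothing. The genes themselves were chosen with earlier diet differences of these arrays known, so their number above or below 0 is a description and not a test of nerve genes.

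The arrays held RNA of mammary parenchyma, the epithelial tree with its supporting tissue, from 6 Holstein heifer calves on an elevated and 5 on a restricted supply of milk replacer. Elevated calves took 5.9 ± 0.2 Mcal (mean ± SE) of metabolisable energy in 8.4 L of milk replacer per day, split into 3 meals, and restricted calves took 2.8 ± 0.2 Mcal in 4 L, split into 2 meals. Milk replacer had 28% protein and 15% fat in both groups, all calves could eat starter grain from day 18, and they were killed at 54 ± 2 days. Of the 6 calves allotted to the restricted diet, 1 had so little parenchyma that it was not separated from fat, and this calf has no array. The elevated supply ran from 6 to 12 L of milk replacer (4.2 to 8.4 Mcal) per day, and no range is given for the restricted supply. The meal number and this range went with the amount of milk, and the effects of these cannot be told apart. The calves are numbered as in the titles of their arrays.

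Schwann cells arise from the neural crest. SOX10 is needed for them to form and to switch on myelin genes, and it works there with EGR2. Neuregulin on the axon signals to ERBB3 on the Schwann cell and sets how much myelin is made. In compact myelin, MBP holds the cytoplasmic faces of the membrane together and PMP22 sits in the membrane, while periaxin, the product of PRX, ties the outer Schwann cell membrane to dystroglycan. Several of the genes are also known from other cells: SOX10 from mammary epithelium, NGFR from basal and myoepithelial cells, S100B from adipocytes, PMP22 from fibroblasts and TSPAN2 from smooth muscle.

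Values are RMA values on a log2 scale, where a gap of 1 is a 2-fold difference in signal. Array medians lay between 6.37 and 6.45. Correlations between arrays ran from 0.964 to 0.990, no pair of arrays held identical values, and the number of arrays limits the precision. Restricted 2 and restricted 4 had adipocyte marker means of 10.2 and 9.58, against 6.83 to 8.48 in the elevated calves and 7.79 to 8.20 in the other restricted calves. Restricted 2 also had the lowest luminal marker mean, 6.88, against 8.67 to 9.49 in the elevated calves and 8.23 to 9.05 in the other restricted calves. Elevated 5 had the highest skeletal muscle marker mean, 7.06, against 5.55 to 6.41 in the other elevated calves and 5.34 to 5.88 in the restricted calves. Results that rest on these calves are given with and without them. The diets were compared with limma over all probe sets with Benjamini-Hochberg adjustment, and differences are elevated minus restricted. Over all probe sets 0.00747% passed an adjusted p under 0.05, and 10.3% had an unadjusted p under 0.05 (4.95% with a higher and 5.33% with a lower elevated mean). Irrespective of p, 50.8% had a higher and 49.2% a lower elevated mean. The groups did not overlap at 1.28% of probe sets, 0.53% with elevated calves above and 0.751% with them below.

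Among the 7 genes the diets differed most at TSPAN2 and MBP, the genes at which every elevated calf lay above every restricted calf. TSPAN2 averaged 2.41-fold and MBP 1.47-fold higher in elevated calves. PRX averaged 1.39-fold higher with overlap at the low end, and SOX10, NGFR, S100B and PMP22 had intervals that span 0. None of the 7 passed the adjustment over all probe sets (limma), and 3 had an unadjusted p under 0.05, all higher in elevated calves. Because these genes were picked with the contrast known, that count is not set against the 4.95% of all probe sets. In whole tissue, fewer cells of a type and less RNA per cell cannot be told apart.

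**Figure D1:**
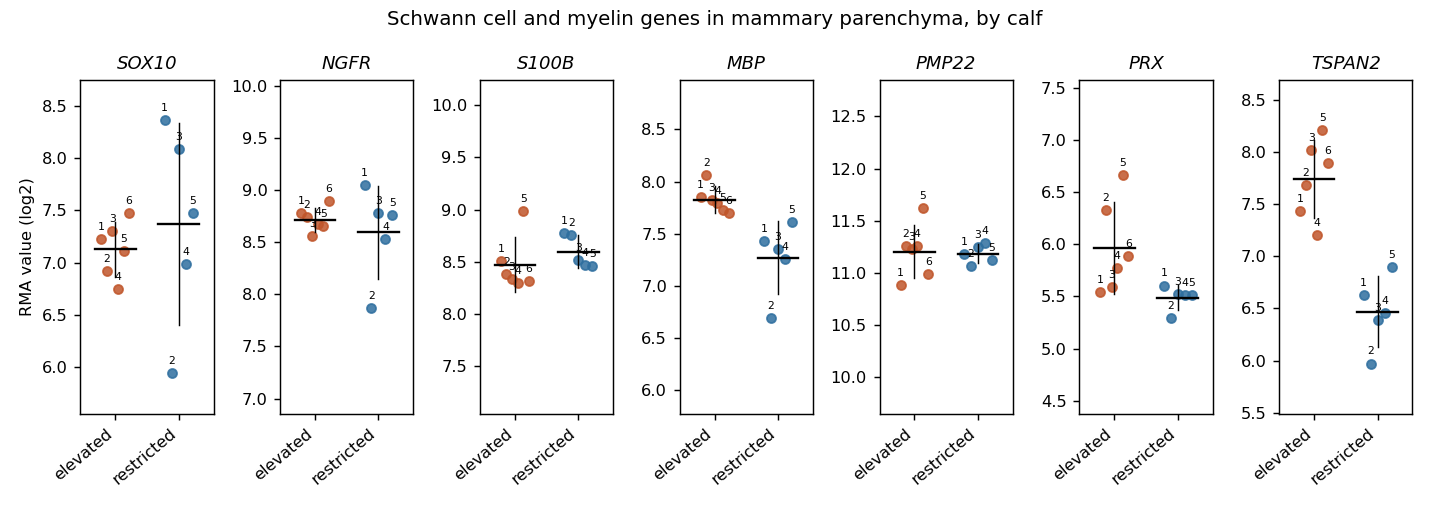
RMA value (log2, vertical axis) of each of the 7 genes in every calf, with elevated calves at left and restricted calves at right of each panel; numbers mark the calves, horizontal bars the group means and vertical bars 1 SD. All panels span the same log2 range. TSPAN2 and MBP separate the diets, while SOX10 has its highest and its lowest value among the restricted calves.

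SOX10, the lineage transcription factor, had values of 7.22, 6.92, 7.30, 6.75, 7.11 and 7.47 in elevated calves 1 to 6, against 8.37, 5.94, 8.09, 6.98 and 7.48 in restricted calves 1 to 5. The elevated calves lay inside the restricted range, with 3 restricted calves above all elevated calves and 1 below them. Averages (± SD) were 7.13 ± 0.26 for the elevated (n = 6) and 7.37 ± 0.97 for the restricted diet (n = 5). The difference was -0.24 ± 0.37 (SE; 95% interval -1.04 to 0.56; limma adjusted p = 0.851). It moved more than that of any other of the 7 genes when calves were left out. Without restricted 2 it was -0.60 (adjusted p = 0.526), without restricted 2 and restricted 4 it was -0.85 (adjusted p = 0.287), and without restricted 1 it was 0.0062 (adjusted p = 0.995). With the luminal marker mean as a covariate SOX10 stood at -0.92 (adjusted p = 0.145). Its relatives of the SoxE family, SOX8 and SOX9, differed by -0.21 and 0.18 (adjusted p = 0.656 and 0.793).

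NGFR, the p75 receptor for neurotrophins, had values of 8.78, 8.74, 8.56, 8.67, 8.65 and 8.89 in elevated calves 1 to 6, against 9.04, 7.87, 8.78, 8.53 and 8.76 in restricted calves 1 to 5. Restricted 1 was the highest and restricted 2 the lowest of all calves. Group means (± SD) were 8.72 ± 0.12 for the elevated (n = 6) and 8.60 ± 0.45 for the restricted diet (n = 5), a difference of 0.12 ± 0.17 (SE; 95% interval -0.26 to 0.50; limma adjusted p = 0.846). The difference turned negative without restricted 2 (-0.062), without restricted 2 and restricted 4 (-0.15), and with the adipocyte (-0.14) or the luminal marker mean (-0.19) as a covariate.

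S100B, the calcium-binding protein, had values of 8.51, 8.39, 8.34, 8.30, 8.99 and 8.32 in elevated calves 1 to 6, against 8.77, 8.76, 8.52, 8.47 and 8.46 in restricted calves 1 to 5. Elevated 5 was the highest of all calves, and 4 of the other 5 elevated calves lay below every restricted calf. Averages (± SD) were 8.47 ± 0.26 for the elevated (n = 6) and 8.59 ± 0.16 for the restricted diet (n = 5), a difference of -0.12 ± 0.13 (SE; limma adjusted p = 0.790). Without elevated 5 the difference was -0.22 (limma unadjusted p = 0.0288, adjusted p = 0.471). S100B was the 1 gene of the 7 for which restricted 2 was not the lowest restricted calf.

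MBP, the protein that compacts myelin, had values of 7.85, 8.06, 7.82, 7.79, 7.73 and 7.70 in elevated calves 1 to 6, against 7.43, 6.69, 7.35, 7.26 and 7.61 in restricted calves 1 to 5. The groups did not overlap, with a gap of 0.081 between the lowest elevated and the highest restricted calf. By diet, the means (± SD) were 7.83 ± 0.13 for the elevated (n = 6) and 7.27 ± 0.35 for the restricted diet (n = 5). The difference was 0.56 ± 0.15 (SE; 95% interval 0.24 to 0.88; limma adjusted p = 0.285). It ran from 0.41 without restricted 2 to 0.64 without restricted 5, with adjusted p between 0.209 and 0.451 over the 11 left-out calves. MBP stood at 0.36 (adjusted p = 0.359) without restricted 2 and restricted 4, at 0.32 (adjusted p = 0.508) with the adipocyte marker mean as a covariate, and at 0.34 (adjusted p = 0.355) with the luminal mean.

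PMP22, a membrane protein of compact myelin whose dosage is known to cause inherited neuropathy in humans, had values of 10.89, 11.26, 11.23, 11.26, 11.62 and 10.99 in elevated calves 1 to 6, against 11.19, 11.06, 11.25, 11.29 and 11.13 in restricted calves 1 to 5. The restricted calves lay inside the elevated range. By diet, the means (± SD) were 11.21 ± 0.26 for the elevated (n = 6) and 11.18 ± 0.09 for the restricted diet (n = 5), a difference of 0.023 ± 0.120 (SE; limma adjusted p = 0.961). The 95% interval of the fold, 0.847 to 1.22, bounds what these arrays allow for PMP22. Its family members EMP1, EMP2 and EMP3, the epithelial membrane proteins, and the lens protein gene LIM2 differed by 0.44, 0.12, 0.19 and 0.0044, with limma adjusted p of 0.514, 0.825, 0.695 and 0.994.

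PRX, the gene of periaxin, had values of 5.54, 6.33, 5.59, 5.78, 6.66 and 5.89 in elevated calves 1 to 6, against 5.60, 5.29, 5.53, 5.51 and 5.51 in restricted calves 1 to 5. Elevated 2, 4, 5 and 6 lay above all restricted calves, and elevated 1 and 3 did not. Group means (± SD) were 5.96 ± 0.44 for the elevated (n = 6) and 5.49 ± 0.12 for the restricted diet (n = 5). The difference was 0.48 ± 0.19 (SE; 95% interval 0.060 to 0.89; limma adjusted p = 0.431). It was 0.34 without elevated 5 and 0.56 without elevated 1. Most PRX values were under the array medians, where RMA compresses differences.

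TSPAN2, a tetraspanin of oligodendrocytes and other cells, had values of 7.43, 7.68, 8.02, 7.20, 8.21 and 7.89 in elevated calves 1 to 6, against 6.63, 5.97, 6.38, 6.46 and 6.89 in restricted calves 1 to 5. The groups did not overlap, with a gap of 0.31 between elevated 4 and restricted 5. Group means (± SD) were 7.74 ± 0.38 for the elevated (n = 6) and 6.47 ± 0.34 for the restricted diet (n = 5). The difference was 1.27 ± 0.20 (SE, 95% interval of the fold 1.78 to 3.27, limma adjusted p = 0.135), and by unadjusted p TSPAN2 ranked 9 among all 26773 probe sets. TSPAN2 was picked with the contrast known, so its rank and interval are a description. The difference ran from 1.15 without restricted 2 to 1.38 without elevated 4, and without elevated 4 it passed the threshold (limma adjusted p = 0.0498). Over the other left-out calves the adjusted p ran up to 0.331, so the call depended on that calf. Without restricted 2, restricted 4 and elevated 5 the TSPAN2 difference was 1.01 (adjusted p = 0.163).

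Other tetraspanins did not share one direction. Of 31 measured members of the family, TSPAN2 included, 14 were higher and 17 lower in elevated calves, with a median difference of -0.017 beside 0.0031 over all probe sets. With an unadjusted p below 0.05, 3 were higher and 5 lower, beside 4.95% and 5.33% of all probe sets. The groups did not overlap at 2 with elevated calves above and 1 with them below, beside 0.53% and 0.751% of all probe sets. Of the 31, 0 passed the adjustment over all probe sets (limma). TSPAN12, which acts in Norrin signalling in blood vessels, differed by 0.47 without overlap between the groups, TSPAN18 by -0.75 without overlap, and TSPAN15, a partner of the protease ADAM10, by -0.46 (limma adjusted p = 0.265, 0.287 and 0.265).

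**Figure D2:**
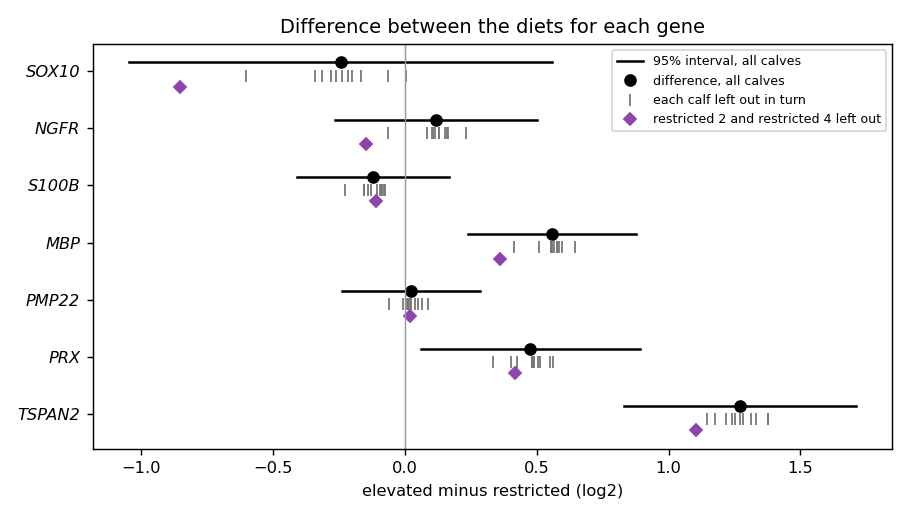
Difference between the diets for each of the 7 genes (elevated minus restricted, log2, horizontal axis): points and black bars give the value and its 95% interval with all calves, grey ticks the value with each calf left out in turn, and diamonds the value with restricted 2 and restricted 4 left out. TSPAN2, MBP and PRX stay above 0 throughout, and SOX10 lies at -0.85 with these calves left out, against -0.24 with all calves.

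The same calves set the ends of several genes. Restricted 2 had the lowest restricted value for 6 of the 7 genes, all but S100B. Elevated 5 had the highest elevated value for 4, namely S100B, PMP22, PRX and TSPAN2, and restricted 1 had the highest restricted value for SOX10, NGFR, S100B and PRX. With restricted 2 and restricted 4 left out, MBP and TSPAN2 were higher and SOX10 was lower in elevated calves at an unadjusted p under 0.05, a level that 8.72% of all probe sets then reached (3.96% higher, 4.76% lower), and PRX no longer reached it. PRX then differed by 0.42 ± 0.24 (SE; limma adjusted p = 0.666), against 0.48 ± 0.19 with all calves. The number of the 7 genes at that level was 3 with and without these calves, but they were not the same genes. It was 4 without elevated 5 and 4 with the adipocyte covariate, where 2596 and 2453 of 26773 probe sets reached that level. Other alternatives gave 2 or 3.

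The 7 genes were then compared from calf to calf within diets. Correlations were taken on deviations from the group means over 11 calves, with exact two-sided permutation of calves within the groups (86400 arrangements) and adjustment over all 21 pairs. Of these pairs 17 had a positive Pearson's r, 2 had an unadjusted p under 0.05 and 0 passed the adjustment. SOX10 and NGFR were closest, with r = 0.915 (exact permutation p = 0.00424, adjusted p = 0.089) and Spearman's rho = 0.782 (exact permutation p = 0.0283, adjusted p = 0.593). Without restricted 1 and restricted 2, the calves farthest from the median of SOX10, r was 0.581 (exact permutation p = 0.173). Leaving out elevated 3 put this pair past the threshold (adjusted p = 0.0146), as no other left-out calf did.

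NGFR and MBP followed, with r = 0.795 (exact permutation p = 0.067, adjusted p = 0.416) and rho = 0.527 (exact permutation p = 0.134, adjusted p = 0.811). Without restricted 1 and restricted 2 that r was 0.209 (exact permutation p = 0.602). PMP22 and PRX came next, with r = 0.767 (exact permutation p = 0.0445, adjusted p = 0.416) and rho = 0.636 (exact permutation p = 0.0564, adjusted p = 0.593). Without elevated 1 and elevated 5 their r was 0.221 (exact permutation p = 0.619). Leaving out the calves farthest from the median narrows the range, which by itself can lower r. MBP and TSPAN2, the genes that separated the diets, had r = 0.47 and rho = 0.236 within diets (exact permutation p = 0.155 and 0.497; adjusted p = 0.416 and 0.929). Without restricted 2 and restricted 5 their r was -0.21 (exact permutation p = 0.686). S100B had an r of -0.057 with SOX10 and -0.323 with MBP (exact permutation p = 0.838 and 0.257; adjusted p = 0.926 and 0.426), with rho of 0.0364 and -0.0182 (exact permutation p = 0.92 and 0.968; adjusted p = 1 and 1). Without the 2 calves farthest from the median these r were 0.0539 and -0.642 (exact permutation p = 0.873 and 0.213).

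Other genes of peripheral nerve were then set beside the 7. The 6 lists of such genes, 83 genes in all, had 76 with a probe set of 1 symbol, 42 with a higher and 34 with a lower elevated mean and a median difference of 0.062 beside 0.0031 over all probe sets. With an unadjusted p below 0.05, 11 were higher and 9 lower, beside 4.95% and 5.33% of all probe sets. The groups did not overlap at 2 with elevated calves above and 1 with them below, beside 0.53% and 0.751% of all probe sets. Of the 76, 0 passed the adjustment over all probe sets (limma). The same shares apply to the counts of the single lists below. The lists were chosen with earlier results known, so their counts are a description and not a test.

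Among Schwann cell regulators and surface markers, 7 of 13 were higher and 6 lower, with a median of 0.0032, 2 higher and 3 lower at an unadjusted p under 0.05. EGR2, the partner of SOX10 in myelination, had group means (± SD) of 6.05 ± 0.77 for the elevated (n = 6) and 6.79 ± 0.18 for the restricted diet (n = 5) (difference -0.75; limma adjusted p = 0.459). CDH19, a cadherin of Schwann cell precursors, averaged 5.39 ± 0.75 in elevated and 5.42 ± 0.39 in restricted calves (difference -0.031, limma adjusted p = 0.983). Both CDH19 means lay under the array medians. ERBB3, the neuregulin receptor, which epithelium also expresses, averaged 9.86 ± 0.32 in elevated and 8.95 ± 1.05 in restricted calves (difference 0.91; adjusted p = 0.472). GFRA3, the receptor for artemin, differed by 0.79 and the stress protein gene CRYAB by -0.41. ITGB8, an integrin that activates TGF-beta, ran from 8.20 to 8.89 in elevated calves and from 9.17 to 9.32 in restricted calves, without overlap (difference -0.65 ± 0.13 SE; adjusted p = 0.183).

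Myelin components were measured higher in elevated calves more often than lower. Of 15, 12 were higher and 3 lower, with a median of 0.24 that stayed between 0.159 and 0.401 under the alternatives tried. With an unadjusted p below 0.05, 3 were higher and 0 lower. The number higher was 5 without elevated 6 and 7 with the replicate block, which also leaves out elevated 6. Elevated 5 had the highest myelin list mean, 7.39, against 6.74 to 7.03 in the other elevated calves. For the 28 genes of the Schwann cell and myelin lists together, the median difference was 0.192 with all calves. It was 0.112 without elevated 5 and 0.070 without restricted 2, restricted 4 and elevated 5. GJB1, a gap junction connexin, had group means (± SD) of 7.35 ± 0.29 for the elevated (n = 6) and 6.47 ± 0.52 for the restricted diet (n = 5) (difference 0.88 ± 0.23 SE; limma adjusted p = 0.278). MAL, a raft protein, differed by 0.76 and PLLP, plasmolipin, by 1.01 (limma adjusted p = 0.378 and 0.486). The proteins of GJB1, MAL and PLLP are also known from epithelial cells. The luminal marker list had 17 of 18 members higher in elevated calves, with means of 8.67 to 9.49 in elevated and 6.88 to 9.05 in restricted calves. With the luminal marker mean as a covariate the median difference of the myelin list was 0.256, with 2 higher and 1 lower at an unadjusted p under 0.05.

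**Figure D3:**
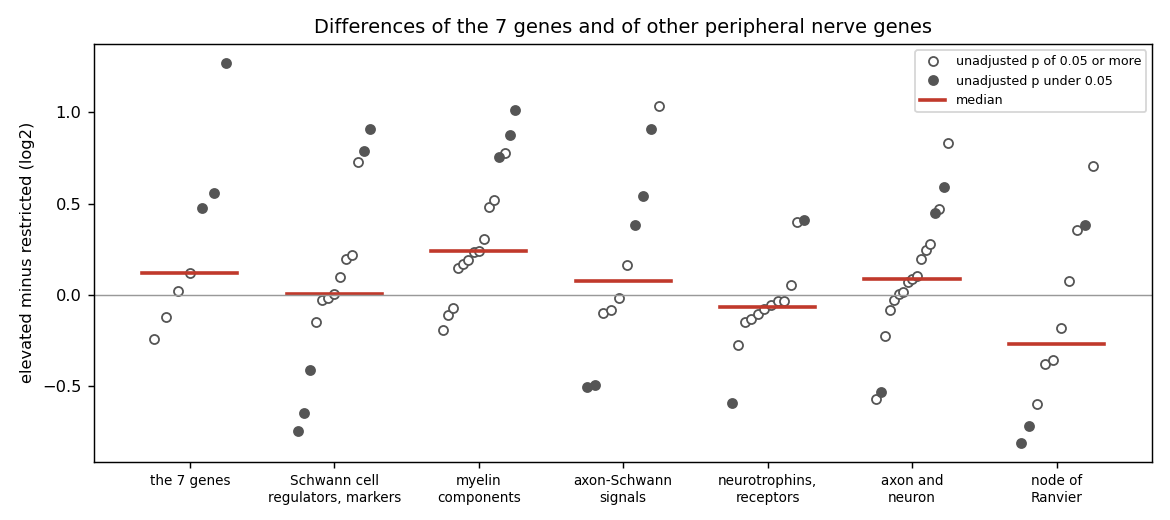
Difference between the diets (elevated minus restricted, log2, vertical axis) of the 7 genes and of the members of 6 lists of other peripheral nerve genes; filled points have an unadjusted p under 0.05, open points do not, and red bars are medians. The lists hold genes on both sides of 0, and the myelin list has the highest median, 0.24.

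Signals between axon and Schwann cell split evenly, 5 higher and 5 lower of 10, with a median of 0.075. The protease gene ADAM17, which sheds neuregulin, differed by -0.50, LAMA2, the laminin chain of the Schwann cell basement membrane, by -0.49, and PTCH1, the hedgehog receptor, by 0.38 without overlap between the diets (limma adjusted p = 0.285, 0.293 and 0.343). Of 12 neurotrophins, receptors and partners of NGFR, 3 were higher and 9 lower, with a median of -0.067. NTF4, a ligand of NGFR, differed by -0.59, NTRK3, the receptor for neurotrophin-3, by 0.41, and SORT1, the co-receptor sortilin, by 0.40 (limma adjusted p = 0.353, 0.464 and 0.585).

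Axon and neuron markers bear on the label too, although neuron cell bodies lie outside the gland. Of 17, 12 were higher and 5 lower, with a median of 0.088, and the list mean per calf ran from 5.22 to 5.60 in elevated and from 5.20 to 5.41 in restricted calves. TH, the enzyme of sympathetic nerves, differed by 0.45, NEFH, the heavy neurofilament, by 0.59 and INA, another neurofilament protein, by -0.53 (limma adjusted p = 0.376, 0.390 and 0.408). Of 10 genes of the node of Ranvier, 4 were higher and 6 lower, with a median of -0.27 that was -0.025 without restricted 2 and restricted 4. KCNA1, a potassium channel beside the node, differed by -0.81, SCN8A, the nodal sodium channel, by -0.72, and NRCAM, a cell adhesion protein, by 0.38 without overlap (limma adjusted p = 0.188, 0.390 and 0.267).

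Marker lists of other cell types were set against the 7 genes in the same way, on deviations from the group means over 11 calves. Of 84 relations between a gene and a list mean, Schwann cell and myelin lists included, 23 had an unadjusted exact permutation p under 0.05 and 0 passed adjustment over the 84. Leaving out a calf put 4 relations past it without elevated 3, 2 each without elevated 5 and without restricted 2, and 1 each without elevated 6, restricted 3 and restricted 5. SOX10 had its highest r with the luminal mean, r = 0.926 (exact permutation p = 0.000891, adjusted p = 0.0749) and rho = 0.836 (exact permutation p = 0.00294, adjusted p = 0.0823). Without elevated 4 and restricted 2 that r was 0.755 (exact permutation p = 0.019). With the basal and myoepithelial mean SOX10 had r = 0.849 and rho = 0.909 (exact permutation p = 0.00541 and 0.0020; adjusted p = 0.103 and 0.0823), and r = 0.873 without elevated 5 and restricted 2. NGFR had r = 0.911 and rho = 0.8 with the luminal mean (exact permutation p = 0.00771 and 0.0129; adjusted p = 0.103 and 0.0922). Without elevated 4 and restricted 2 the r of NGFR was 0.672 (exact permutation p = 0.109). With the basal and myoepithelial mean NGFR had r = 0.830 and rho = 0.836 (exact permutation p = 0.0115 for both, adjusted p = 0.107 and 0.0922). Without elevated 5 and restricted 2 that r was 0.615 (exact permutation p = 0.154). With the mean of other Schwann cell regulators and markers SOX10 had r = 0.431 and rho = 0.4, and NGFR r = 0.332 and rho = 0.282 (exact permutation p = 0.0785, 0.228, 0.200 and 0.403; adjusted p = 0.183, 0.447, 0.330 and 0.620). Without elevated 5 and restricted 1 these r were 0.669 for SOX10 and 0.555 for NGFR (exact permutation p = 0.0813 and 0.216). Such relations were not limited to the epithelial lists. SOX10 had r = -0.778, -0.771 and 0.750 with the adipocyte, macrophage and lymphocyte means (exact permutation p = 0.0169, 0.00977 and 0.0289). Its rho was -0.891 with the fibroblast and -0.809 with the endothelial mean (exact permutation p = 0.00274 and 0.0044). NGFR had r = -0.789 and 0.776 with the macrophage and lymphocyte means (exact permutation p = 0.00676 and 0.00866). The r with the different lists were not tested against each other.

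MBP was also closest to the luminal list by r, and the remaining 4 genes had other closest lists. MBP had r = 0.796 and rho = 0.673 with the luminal mean (exact permutation p = 0.0603 and 0.0398; adjusted p = 0.169 and 0.167), and r = 0.200 without elevated 4 and restricted 2. With the adipocyte mean it had r = -0.749 and rho = -0.755 (exact permutation p = 0.0151 and 0.0143, adjusted p = 0.116 and 0.0922). Without restricted 2 and restricted 5 that r was -0.419. Both the luminal and the adipocyte r of MBP were weaker with those calves left out, which also narrows the range. TSPAN2 had r = 0.778 and rho = 0.791 with the mean of the other myelin genes (exact permutation p = 0.00795 and 0.00958; adjusted p = 0.103 and 0.0922), and r = 0.503 without elevated 5 and restricted 2 (exact permutation p = 0.188). PMP22 had r = 0.839 and rho = 0.736 with the smooth muscle and pericyte mean (exact permutation p = 0.00538 and 0.0218, adjusted p = 0.103 and 0.122). Without elevated 5 and elevated 6 that r was 0.632 (exact permutation p = 0.0802). With the skeletal muscle mean PMP22 had r = 0.810 and rho = 0.718 (exact permutation p = 0.0179 and 0.0251, adjusted p = 0.116 and 0.132). Without elevated 5 and restricted 4 that r was 0.453 (exact permutation p = 0.399). With the mean of other Schwann cell regulators and markers PRX had r = 0.732 and rho = 0.791 (exact permutation p = 0.0299 and 0.00723; adjusted p = 0.148 and 0.0922), and S100B had r = 0.735 and rho = 0.609 (exact permutation p = 0.0637 and 0.0590; adjusted p = 0.173 and 0.206). Without elevated 5 and restricted 1, which also narrows the range, these r were 0.243 for PRX and -0.229 for S100B (exact permutation p = 0.583 and 0.615). Melanocytes share SOX10 with Schwann cells, and with their marker mean SOX10 had r = -0.014 and rho = -0.309 (exact permutation p = 0.955 and 0.303, adjusted p = 0.966 and 0.499). The melanocyte mean ran from 5.28 to 5.51 in elevated and from 5.26 to 5.35 in restricted calves. These values lay under the array medians, which limits what this r can show.

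**Figure D4:**
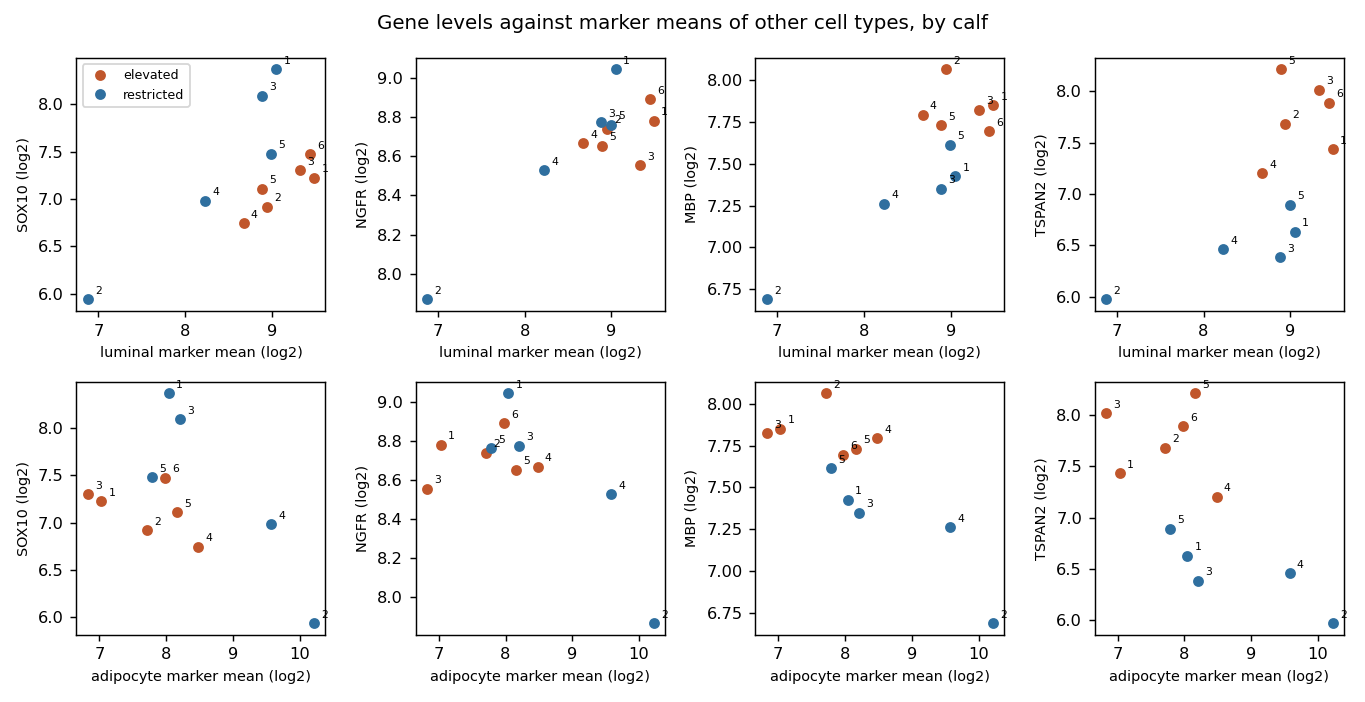
RMA value (log2, vertical axes) of SOX10, NGFR, MBP and TSPAN2 against the mean of luminal markers (upper row) and of adipocyte markers (lower row) in the same calf (log2, horizontal axes); numbers mark the calves. Restricted 2 lies at the low luminal and high adipocyte end of every panel, and TSPAN2 keeps all elevated calves above all restricted calves.

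Levels of those other lists differed between the diets as follows, as ranges of the mean per calf. Adipocyte markers, led by LPL and ADIPOQ, ran from 6.83 to 8.48 in elevated and from 7.79 to 10.2 in restricted calves, with 18 of 18 lower in elevated calves. Luminal markers were led by KRT19 and ESR1. Basal markers ran from 8.24 to 8.95 in elevated and from 8.09 to 9.13 in restricted calves, with 8 of 13 lower. Skeletal muscle markers ran from 5.55 to 7.06 in elevated and from 5.34 to 5.88 in restricted calves, with 14 of 15 higher. Smooth muscle and pericyte, endothelial, fibroblast, lymphocyte, macrophage and melanocyte lists had median differences of 0.12, 0.014, 0.011, -0.063, -0.010 and -0.0064. None of their members passed the adjustment over all probe sets (limma), and their part in the differences of the 7 genes was not tested beyond the covariate fits given above.

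For each of the 7 genes the genes whose deviations from the group means ran closest to it over 11 calves were found among 18437 genes. They were CEACAM19 (r = 0.982) and VCPKMT (0.980) for SOX10, TRPS1 (0.981) and ADGRV1 (0.978) for NGFR, and ADH1C (0.964) and AMBP (0.963) for S100B. For MBP they were DAP (0.956) and LOC509810 (0.929), for PMP22 LRRC39 (0.963) and MIR488 (0.960), for PRX ST6GALNAC1 (0.954) and PKD2 (0.951), and for TSPAN2 IRF2BP2 (0.972) and CCDC77 (0.949). Such values are the highest of many and describe these calves. An r above 0.5 was found for 12.1% of genes with TSPAN2 and for 17.1% with SOX10. None of these 14 genes was on the nerve lists. IRF2BP2 differed by 0.33 between the diets (limma adjusted p = 0.330) and CCDC77 by 0.089.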

How the data were processed

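RNA of mammary parenchyma from 6 elevated and 5 restricted calves was read on 1-colour arrays labelled from 100 ng of total RNA. The authors deposited log2 values per probe set made with RMA, per the submitters' processing notes; no version or setting is stated in those notes, and the values themselves gave the log2 scale. Of 26773 probe sets, 18790 had exactly 1 gene symbol in the platform annotation, while 385 carried several and 7598 no symbol in it. A lookup by gene number against RefSeq's table for ARS-UCD2.0 changed 0 symbols. Positions are left out, since no source used here names a build for the array.

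The members and lists were chosen with earlier results of these data known. Diets were compared with limma 3.58.1 in R 4.3.3 (lmFit, eBayes, no covariate, no filter) with p-values of all probe sets adjusted together (Benjamini-Hochberg, threshold 0.05); SE and 95% intervals are limma's moderated ones. Each calf is a separate animal, per the labels. Lists are described by counts and medians only. Named were the 7 genes, set defining markers, up to 3 further genes per nerve list with the smallest p, all of the PMP22 and SoxE families, 3 tetraspanins, up to 2 of the brightest genes per other cell type list, and the 2 closest genes to each of the 7. The fits and correlations were tested on simulated data. Alternatives were quantile normalization, median centring, filters, other variance models, array weights, marker means as covariates, the replicate number as a block and left-out calves. Whether equal replicate numbers pair the calves is not stated in the labels. Correlations of their deviations over 5 pairs ran from -0.147 to 0.211, too few pairs to exclude it. Figures were drawn with matplotlib 3.10.9.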

Additional observations from a re-analysis of the deposited data

Results flagged for a closer look

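S100B in elevated 5 was 8.99, while the next elevated calf had 8.51 and the lowest 8.30. The gap of this calf to its nearest neighbour was 0.695 of the range of the 6 elevated calves, above the limit of 0.625 for that number. Among 14 tests, 7 genes in 2 groups, this was the 1 value past its limit. Chance passes the limit in about 1 in 20 tests, and the limit was not adjusted for the 14 tests. Elevated 5 also had the highest skeletal muscle mean (7.06, against 5.55 to 6.41 in the other elevated calves).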

How the results depend on the processing

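All 23 alternatives kept the sign of TSPAN2, MBP, PRX and S100B, and none put MBP, PRX, S100B, SOX10, NGFR or PMP22 past the threshold; TSPAN2 passed it in 1, without elevated 4 (adjusted p = 0.0498). SOX10 ran from -0.60 to 0.0062 over left-out calves. NGFR ran from -0.062 to 0.23 over left-out calves and was -0.15 without restricted 2 and restricted 4, -0.13 without these and elevated 5, -0.14 with the adipocyte and -0.19 with the luminal covariate. PMP22 ran from -0.060 to 0.087 over left-out calves, and was -0.060 with array weights and -0.064 without restricted 2, restricted 4 and elevated 5. The cause of these changes was not tested.

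The count of all probe sets past the threshold, 2 with all calves, ran from 0 to 12 over left-out calves: 12 without elevated 4, 8 without restricted 2, 1 without elevated 6 and 0 without elevated 1, elevated 3, restricted 1 or restricted 5. It was 25 without restricted 2 and restricted 4, 15 without these and elevated 5, 11 with the luminal and 0 with the adipocyte covariate, 4 with array weights, 0 with the unmoderated test and 1 among probe sets with 1 symbol. With the replicate block, which leaves out elevated 6, it was 0, and TSPAN2 differed by 1.24 (adjusted p = 0.249). The count of correlated pairs ran from 0 to 1 and that of marker relations from 0 to 4 over left-out calves. Averaging several probe sets per gene was not run because each of the 7 genes had 1. Dim probe sets such as PRX limit what can be seen.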
